A study of Bos taurus with 12 samples.

Results

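The intergenic circRNAs outside chromosome 23 are circular RNAs whose back-splice junctions the authors assigned to no annotated gene. They were picked from the deposited circRNA table by 2 labels: a circRNA type of intergenic, and a chromosome other than the one that carries the row for BoLA, a gene of the cattle major histocompatibility complex (MHC). The table held 14070 circRNAs, of which 12423 were exonic, 1362 intronic and 285 intergenic. The chromosome label removed 17 of the intergenic rows, all on chromosome 23, and left 268 members.

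The study followed intramuscular preadipocytes of the longissimus dorsi, taken from newborn Qinchuan cattle, through fat cell differentiation in culture. Cells at 0 d were undifferentiated. Cells at 3, 6 and 9 d had received IBMX, dexamethasone and insulin for 48 hours and then medium with insulin alone. Each day had 3 replicate libraries, 12 in all, and the same samples were profiled for circRNAs, mRNAs and miRNAs. The comparisons made here ask which members differed in level between each later day and 0 d, and all of them share the 0 d libraries. Values per library are given in the order of days 0, 3, 6 and 9, with replicates 1, 2 and 3 within a day.

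A circRNA forms when the splicing machinery joins a downstream 5′ splice site to an upstream 3′ splice site, which closes the RNA into a ring without free ends. Such rings resist exonucleases and can outlast the linear transcript of the same locus, and some carry sites that bind miRNAs. A junction is called intergenic when the annotation lists no gene for it, so the label depends on the annotation as much as on the RNA.

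Of the members, 3 stand in the study's network of circRNAs, miRNAs and mRNAs, and their partner miRNAs are shown here because the network ties them to members. The seed, bases 2 to 8 of the miRNA, is printed in capitals. circRNA2018 was tied to bta-miR-330 and circRNA2024 to bta-miR-486. circRNA2041 was tied to bta-miR-10172-3p_R-1, bta-miR-433 and bta-miR-7857-5p. No seed is shared between these 5 miRNAs. The primer pair that the study designed for circRNA2018 is shown as well, with no part in capitals, since it is the member measured by a separate assay there.
bta-miR-330: gCAAAGCAcacggcctgcagaga
bta-miR-486: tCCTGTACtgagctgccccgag
bta-miR-10172-3p_R-1: tCACTGGGcatcctctgcttt
bta-miR-433: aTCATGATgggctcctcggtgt
bta-miR-7857-5p: aTAGCCAGttggggaagaatgc
circRNA2018 forward primer: ctgagtgtctccactacggc
circRNA2018 reverse primer: gccatctaagaccactgggg

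The members were thinly covered. Each library held 5358 to 10729 back-spliced reads over all circRNAs, and the members together took 3463 of the 95674 reads, or 3.62%. They held 26.8% of all intergenic reads, because the 17 rows on chromosome 23 held 9443. A member had 2 to 123 reads over the 12 libraries, with a median of 4, against a median of 2 and a highest value of 5692 over all circRNAs. At least 5 reads were found for 128 members, at least 10 for 82 and at least 20 for 42, and 79 members had exactly 2. The 20 most read members held 1576 reads, 45.5% of the total.

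No member had a value of 1 in any library. The lowest of the 688 values above 0 was 2, and 217 values equalled it. Among exonic circRNAs 47.7% of the values above 0 were 1, and among intronic ones 51.7%. A member listed at 0 may therefore have had a read that the table does not show. Folds of single members against days at 0 were counted against a floor of 3 reads per library.

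The label was checked against the other rows of the table. A member overlapped a gene-assigned circRNA on its own strand in 48 cases (17.9%), over 34 host genes, and these 48 held 591 reads, 17.1% of the members' reads. A start or an end was shared with such a circRNA by 31 members, and 9 members lay wholly inside one. By position, then, part of the group lies in transcribed gene loci despite the intergenic label. Every member was listed with an exon count of 1.

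The members were spread over the genome. They lay on 32 chromosomes and scaffolds besides the mitochondrial genome, with 127 on the plus strand and 141 on the minus strand. Chromosome 14 held the largest number, 26 members with 419 reads, and chromosome 27 held the most reads, 495 in 19 members. The mitochondrial genome held 9 members with 313 reads, 9.04% of the members' reads. Another 3 members lay on unplaced scaffolds.

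Detection was mostly limited to a few libraries. A member was above 0 in a median of 1 library, and 150 of the 268 were seen in 1 library. By day, 164 were seen on 1 day, 37 on 2, 32 on 3 and 35 on all 4. Day by day, 107 members were above 0 at 0 d and 129, 111 and 127 on days 3, 6 and 9, and of these 31, 51, 37 and 45 were seen on that day alone. Among the 82 members with at least 10 reads, 35 were seen on all 4 days and 9 on 1 day.

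circRNA2047 was the only member above 0 in all 12 libraries. It lies at chr27:33425424-33459554 on the minus strand, over NSD3, a histone methyltransferase gene, and spans 34131 bp. Its counts were 9, 5 and 8 at 0 d, 6, 12 and 10 at 3 d, 7, 6 and 4 at 6 d, with 15, 6 and 6 at 9 d. The counts of all later days overlapped those at 0 d. Circles assigned to NSD3 itself were 3, with 6 reads in all, so most back-spliced reads over this gene carried the intergenic label.

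The share of back-spliced reads taken by the members was highest at 3 d. At 0 d it was 3.40%, 3.15% and 3.48% in the 3 replicates, and at 3 d 4.79%, 4.22% and 4.03%. At 6 d it was 4.17%, 2.84% and 3.21%, and at 9 d 3.17%, 3.77% and 3.23%. All 3 d libraries lay above all 0 d libraries and above all 9 d libraries, while replicate 1 at 6 d lay within the range of 3 d. The means were 3.34% ± 0.17 at 0 d and 4.35% ± 0.39, 3.40% ± 0.69 and 3.39% ± 0.33 on days 3, 6 and 9 (SD, n = 3). The 95% Wilson interval of a single library was wide beside these differences: 2.76% to 3.60% in replicate 2 at 0 d and 3.64% to 4.47% in replicate 3 at 3 d. These intervals cover counting error only, and no test was made on the shares. The share at 6 d without replicate 1 averaged 3.02%.

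**Figure D1:**
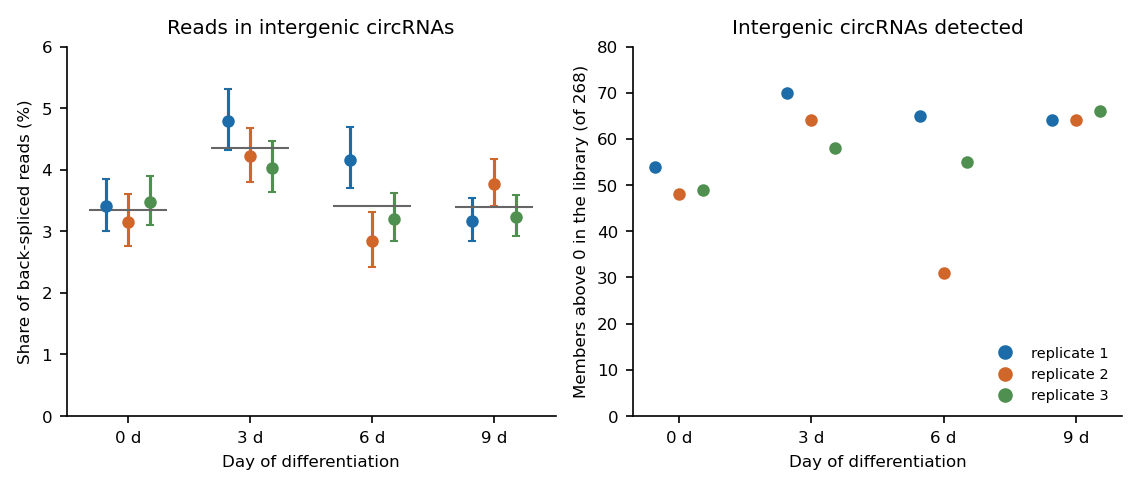
Left, share of back-spliced reads in the intergenic circRNAs outside chromosome 23 (%) in each library by day of differentiation, with 95% Wilson intervals and a line at the mean of the day. Right, number of members above 0 in each library; the lowest, 31, is replicate 2 at 6 d, the library with the fewest back-spliced reads.

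In span, the distance on the genome between the joined ends, the members covered a wide range. The spans ran from 139 to 196226 bp, with a median of 9592 bp (95% interval of the median 6619 to 12077). The median was 10373 bp for exonic and 884 bp for intronic circRNAs, and 284 bp for the 683 exonic circRNAs made of 1 exon. The 17 intergenic rows on chromosome 23 had a median of 94439 bp. Members that overlapped a gene-assigned circRNA were longer, with a median of 33454 bp, than the other 220, with 6796 bp.

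Spans of at most 300 bp were found for 54 members (20.1%), which held 29.1% of the members' reads. Of exonic circRNAs 3.05% were that short, and of intronic ones 23.1%. At the other end, 15 members (5.60%) spanned over 100 kb and held 254 reads, 7.33% of the members' reads, beside 2.78% of exonic circRNAs. Between these, 25 members (9.33%) spanned over 300 bp and up to 1 kb, 57 (21.3%) spanned 1 to 10 kb and 117 (43.7%) spanned 10 to 100 kb. The shortest member with at least 10 reads was circRNA5808, 141 bp long at chr18:23779880-23780020, with all its 10 reads in replicate 1 at 3 d. The longest such member was circRNA5800, 185285 bp long at chr13:10880204-11065488, with 22 reads and none at 0 d.

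The members over 100 kb held the smallest share of reads at 3 d. Their share of the members' reads was 12.3%, 15.9% and 22.7% at 0 d, 2.33%, 0.570% and 2.02% at 3 d, 8.33%, 4.61% and 3.92% at 6 d, with 6.49%, 8.77% and 5.48% at 9 d. Every 0 d library was above every later one, and every 3 d library was below every other one. The means were 17.0% ± 5.25, 1.64% ± 0.94, 5.62% ± 2.37 and 6.91% ± 1.69 (SD, n = 3). Without these 15 members the share of back-spliced reads at 0 d averaged 2.77%, and at 3 d 4.27%. The reads came from few places: of 127 long-member reads at 0 d, 56 lay in a chromosome 19 locus over LOC509283, 27 on chromosome 25 over CYP3A4 and 24 in another chromosome 19 locus beside MYH3. Those loci had 6, 0 and 0 such reads at 3 d.

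**Figure D2:**
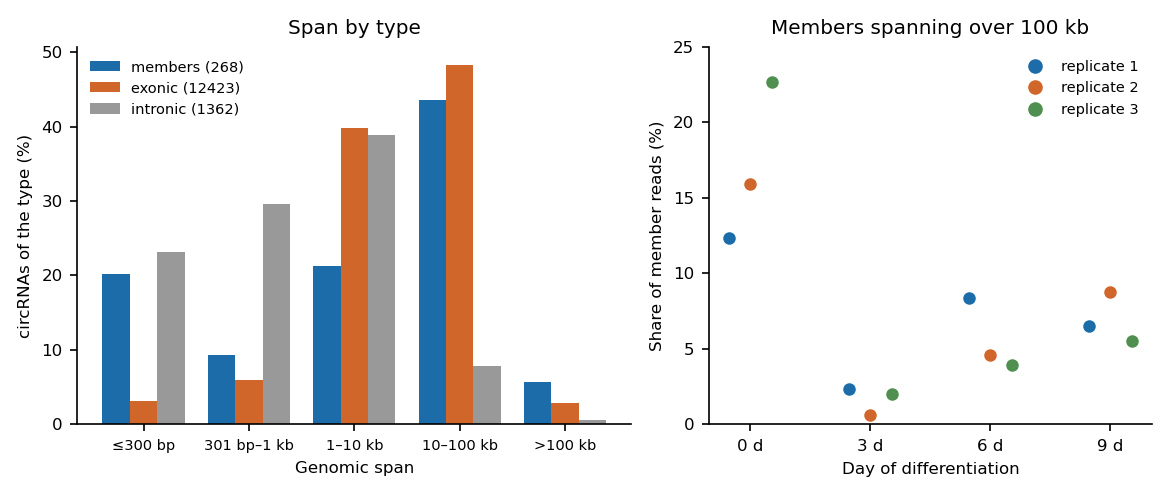
Left, percent of circRNAs of each type by genomic span, for the 268 members, exonic and intronic circRNAs. Right, share of the members' reads (%) in members spanning over 100 kb, in each library by day; the 3 d libraries sit at 0.570% to 2.33% and the 0 d libraries at 12.3% to 22.7%.

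Scatter between replicates was wide, and how the members stood beside other types depended on the measure. Of the 82 members with at least 10 reads, 13 (15.9%, 95% Wilson interval 9.51% to 25.3%) had over 50% of them in 1 library. The same held for 5.00% of exonic circRNAs with at least 10 reads, and for 6.38% when values of 1 were read as 0. Of intronic ones with at least 10 reads it held for 7.14%, with values of 1 read as 0. The share among members depended on the count: it was 33.6% for members with at least 5 reads and 2.38% for members with at least 20. With values of 1 read as 0, exonic circRNAs were at 31.8% and 1.55% at these minima, and intronic ones at 39.3% and 7.69%. In the matched range of 10 to 19 reads, 12 of 40 members had over 50% of their reads in 1 library. With values of 1 read as 0, so did 60 of 501 exonic and 2 of 30 intronic circRNAs in that range.

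Within a day the pattern was similar. A member had at least 10 reads on a given day in 105 cases, and in 51 of them (48.6%) at least 1 of the 3 replicates was listed at 0. For exonic circRNAs this share was 22.4% and for intronic ones 39.6%, with values of 1 read as 0. All reads of the day came from 1 library in 18 cases (17.1%), beside 2.40% of exonic and 3.77% of intronic cases. The variance between replicates divided by the mean had a median of 2.62 for members, 1.33 for exonic and 2.39 for intronic circRNAs, here with values as deposited. The biological coefficient of variation fitted by edgeR went the other way, with a median of 1.205 for the members tested, 1.406 for exonic and 1.382 for intronic circRNAs. Differences between these types were not tested.

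Many members lay on top of each other. When members within 1 kb were joined, a grouping chosen after the values were seen, they formed 173 loci, of which 140 held a single member and 33 held 2 or more. An end was shared with another member by 94 members. The 6 loci with at least 5 members held 60 members and 1312 reads, 37.9% of all. Summed over a locus the scatter was smaller: of 51 loci with at least 10 reads, 1 had over 50% of them in 1 library, and of the 28 such loci with 2 or more members, none did. A summed locus also holds more reads than a member, and the part of this in the smaller scatter was not tested.

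The largest locus lies on chromosome 27 at chr27:6220415-6224642. It holds 18 members within 4228 bp, 13 on the plus strand and 5 on the minus strand, and 7 of them share a start. Its 401 reads were split as 19, 43 and 16 at 0 d, 28, 26 and 41 at 3 d, 34, 5 and 34 at 6 d, with 43, 61 and 51 at 9 d. The 3 d and 6 d libraries overlapped 0 d. In raw counts all 9 d libraries were above all 3 d and 6 d libraries, but not after scaling for library size, and the lowest of them equalled the highest 0 d library. The nearest circRNA hosts are ZNF705A and VEGFC. In the RefSeq gene order of ARS-UCD2.0, another assembly than that of the files, the stretch between these hosts holds ribosomal RNA genes (LOC112444653 and RN18S1), MIR2887-2 and a defensin cluster. These neighbours were looked up after the values were seen, and which of them underlies the locus cannot be told from the order alone.

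The longest member of that locus, circRNA8722, also spans 11 small RNAs of the deposited miRNA table, and PC-5p-34310_61 among them lies inside circRNA3366 too. It is shown because its hairpin falls within a called member, and no part of it is capitalised. Its raw count over the 12 libraries was 98, and that of PC-5p-15874_198, also inside circRNA8722, was 942. In all, 7 members held a deposited small RNA hairpin.
PC-5p-34310_61: tggggatatcgggtggga
PC-5p-15874_198: tgcgcgtccgcgccccggggat

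At 3 d against 0 d, 8 of the 128 members with enough reads for the test were called, 3 higher and 5 lower, beside 0.813% called among all 2828 circRNAs tested. A call needed an edgeR quasi-likelihood p, adjusted by Benjamini-Hochberg over all circRNAs tested, under 0.05 and a log2 fold change above 1 in size. The other 140 members had under 5 reads and were not tested. At 6 d 2 members were called, 1 higher and 1 lower, beside 0.53% of all, and at 9 d 3, 2 higher and 1 lower, beside 0.566%. An unadjusted p under 0.05 was found for 29, 16 and 18 of the 128 members, and for 175, 138 and 179 of all 2828 circRNAs. The median log2 fold change was 0.00, 0.00 and 0.08 for members and 0.00 at each day for all circRNAs. A member with reads on few days passes the filter through those days, so these counts are a description. DESeq2 called 0 members in each comparison, with an unadjusted p under 0.05 for 5, 2 and 1. With edgeR, leaving out each library in turn gave 2 to 7, 1 to 2 and 2 to 4 called members on days 3, 6 and 9.

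In counts scaled by library size, groups of replicates that did not overlap were found for 12 members at 3 d, 6 at 6 d and 6 at 9 d, or 9.38%, 4.69% and 4.69% of the 128 tested. The same shares over all circRNAs were 7.64%, 6.29% and 8.45%, against 0.813%, 0.53% and 0.566% called by edgeR.

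**Figure D3:**
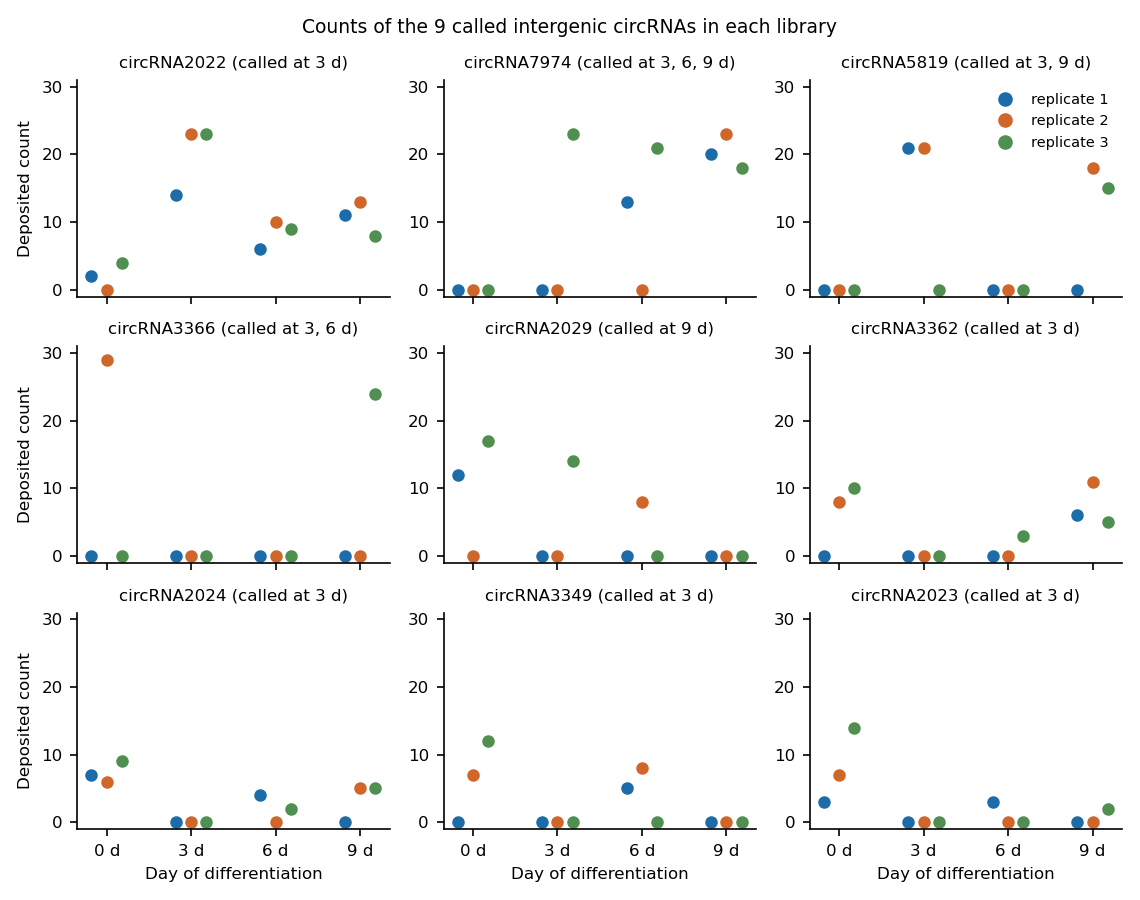
Deposited back-spliced counts of the 9 members called in at least 1 comparison, in each library by day of differentiation, each point a replicate. circRNA2022 is above 0 in 11 of the 12 libraries, while circRNA3366 is above 0 in 2.

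The most read member, circRNA2022, was higher at 3 d. It spans 200 bp on the minus strand at chr18:23779743-23779942. Its counts were 2, 0 and 4 at 0 d, 14, 23 and 23 at 3 d, 6, 10 and 9 at 6 d, with 11, 13 and 8 at 9 d. All later libraries lay above all 0 d libraries, and at 3 d all were above every other library. The log2 fold change at 3 d was 3.07 (SE 0.79, adjusted p = 0.0154). At 6 d and 9 d it was 2.25 (SE 0.81) and 2.16 (SE 0.80), with adjusted p of 0.472 and 0.565. The 3 d call was lost without replicate 2 at 0 d (adjusted p = 0.217), without replicate 2 at 3 d (0.0900), without replicate 3 at 3 d (0.0717) and with DESeq2 (1), over a range of 0.00164 to 1 in 16 alternatives.

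circRNA2022 belongs to a locus of 6 overlapping members within 485 bp, all on the minus strand. Replicates differed in which of them they showed at 3 d: circRNA5808 had 10 reads in replicate 1 alone, circRNA4663 had 16 in replicate 2 alone, and circRNA7965 and circRNA7966 had 18 and 6 in replicate 3 alone. Summed, the locus had 2, 0 and 6 reads at 0 d, 24, 39 and 47 at 3 d, 14, 14 and 9 at 6 d, with 11, 20 and 15 at 9 d. No later library reached down to a 0 d library, and every 3 d library was above every other one.

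When the members of each locus were summed, a test chosen after the data were seen, 6 of 75 loci were called at 3 d beside 0.757% of all 2775 features tested, 0 at 6 d beside 0.432% and 2 at 9 d beside 0.541%. At 6 d 14 loci had an unadjusted p under 0.05 in edgeR. These counts were not stable. At 3 d 3 loci were called without replicate 3 at 0 d and likewise without replicate 2 at 3 d, and 2 with DESeq2. At 6 d 1 was called without replicate 1 at 0 d, replicate 3 at 0 d or replicate 1 at 6 d, and 3 without replicate 3 at 6 d. DESeq2 called 0 loci at 6 d and 9 d, with an unadjusted p under 0.05 for 3 and 2. The chromosome 18 locus had a log2 fold change of 3.50 at 3 d (adjusted p = 0.000144), and it was called in all 8 alternatives tried for summed loci, DESeq2, the replicate block and each left-out library included (adjusted p 2.11e-05 to 0.0088). At 6 d and 9 d its log2 fold changes were 2.34 and 2.27 (adjusted p = 0.114 and 0.152). Both were called without replicate 3 at 0 d (adjusted p = 0.0104 and 0.0214), and at 6 d also without replicate 3 of that day (0.0264).

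The chromosome 18 locus lies 12564 bp from the nearest circRNA of MMP2, a gene for a matrix-degrading metalloproteinase. MMP2 was picked as the nearest host after the values were seen. Its mRNA was at 912 ± 26.9 FPKM at 0 d and 3419 ± 252, 2095 ± 46.2 and 2389 ± 80.4 on days 3, 6 and 9 (SD, n = 3). The mRNA was called higher on each later day by limma, with log2 fold changes of 1.90 at 3 d and 1.39 at 9 d (adjusted p = 1.79e-09 and 9e-08, and 1.6e-07 at 6 d), beside 23.3%, 11.4% and 10.9% of all 15402 mRNAs called. LPCAT2, a lipid acyltransferase gene that RefSeq also places between the hosts, was at 5.22, 5.18 and 5.66 FPKM at 0 d and 13.9, 17.3 and 16.9 at 3 d (log2 fold change 1.56, adjusted p = 4.98e-07). Whether the members derive from either transcript was not tested.

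On chromosome 25, 4 members lie over CYP3A4, a cytochrome P450 gene of drug and steroid metabolism. Their summed reads were 2, 10 and 22 at 0 d, 0, 0 and 0 at 3 d, 0, 0 and 3 at 6 d, with 6, 11 and 23 at 9 d. The 3 d libraries were all at 0, and 0 d and 9 d overlapped. The sum was called lower at 3 d (edgeR adjusted p = 0.000144), and the call held in all 8 alternatives for summed loci (4.1e-05 to 0.0436). At 6 d the sum was not called (adjusted p = 0.0914), but it was called lower without replicate 1 at 0 d (0.0486) and without replicate 3 at 6 d (0.0274).

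CYP3A4 mRNA was at 50.3 ± 2.12 FPKM at 0 d and 1.14 ± 0.18, 12.4 ± 1.39 and 83.8 ± 27.4 on days 3, 6 and 9 (SD, n = 3). All 3 d libraries were below all others, and all 9 d libraries were above all 0 d libraries. The limma log2 fold changes were -5.35 and -2.02 at 3 d and 6 d (adjusted p = 9.5e-09 and 2.84e-05), both called, and 0.69 at 9 d (adjusted p = 0.0206), which is under the fold threshold. Both the summed circRNA reads and the mRNA were lowest at 3 d. Circles assigned to CYP3A4 itself had 1 read. In the RefSeq order of ARS-UCD2.0 the stretch between the nearest hosts, MCM7 and TMEM225B, also holds CYP3A28, CYP3A74, CYP3A76 and CYP3A24. Which of these genes the members derive from was not tested.

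circRNA3362, at chr25:36609100-36723984, was the called member of that locus. Its counts were 0, 8 and 10 at 0 d, 0, 0 and 0 at 3 d, 0, 0 and 3 at 6 d, with 6, 11 and 5 at 9 d. Replicate 1 at 0 d was as low as the 3 d libraries, and 9 d overlapped 0 d. Its 3 d call had an adjusted p of 0.0356. The call was lost in 10 of 16 alternatives (adjusted p 0.0136 to 1), among them those without replicate 2 at 0 d (0.177), replicate 3 at 0 d (0.270) and replicates 1, 2 or 3 at 3 d (0.202, 0.214 and 0.237).

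On chromosome 19, 3 members over LOC509283 span 140967 to 147583 bp each. Their summed reads were 14, 11 and 31 at 0 d, 3, 0 and 3 at 3 d, 13, 0 and 2 at 6 d, with 0, 12 and 10 at 9 d. Every 0 d library was above every 3 d library, while 6 d and 9 d overlapped 0 d. The sum was called lower at 3 d (edgeR adjusted p = 0.00473). Its 3 d counts were all at or under the floor of 3 reads, so no exact fold is given. This call was lost without replicate 3 at 0 d (0.282), without replicate 2 at 3 d (0.243) and with DESeq2 (1), over a range of 0.00556 to 1 in 8 alternatives. At 6 d the sum was called without replicate 1 of that day (adjusted p = 0.0314) and not otherwise (log2 fold change -1.71, adjusted p = 0.626).

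LOC509283 mRNA was at 1158 ± 140 FPKM at 0 d and 274 ± 18.3, 556 ± 66.5 and 568 ± 53.7 on days 3, 6 and 9 (SD, n = 3). All later libraries were below all 0 d libraries. It was called lower on each later day, with log2 fold changes of -2.07, -1.06 and -1.03 (adjusted p = 1.88e-07, 6.07e-05 and 8.6e-05). The last 2 lie at the fold threshold: the 6 d call was lost without replicate 2 at 0 d (absolute log2 fold change just under 1, adjusted p = 0.000397) and the 9 d call without replicate 1 at 0 d (-0.98), replicate 2 at 0 d (-0.96) or replicate 2 at 9 d (-0.95). Rescaling the FPKM by median ratios removed both calls. Gene-assigned circles at this locus had 2 reads, against 99 for the 3 members.

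Of these 3, circRNA2024 was called lower at 3 d. It lies at chr19:52140116-52281082, and its counts were 7, 6 and 9 at 0 d, 0, 0 and 0 at 3 d, 4, 0 and 2 at 6 d, with 0, 5 and 5 at 9 d. All later libraries were below all 0 d libraries. The fall at 3 d was at least 2.54-fold (adjusted p = 0.0234). The call was lost in 10 of 16 alternatives (0.00886 to 1), including the fits without replicate 1 at 0 d (0.0659), replicate 3 at 0 d (0.109) and replicates 1, 2 or 3 at 3 d (0.159, 0.157 and 0.186). Its neighbour circRNA2025, with 7, 5 and 12 reads at 0 d and 3, 0 and 3 at 3 d, was at least 2.73-fold lower at 3 d but was not called (adjusted p = 0.586).

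circRNA2023 lies on the same chromosome at chr19:29430476-29532719, 72780 bp from the circRNAs of MYH3, the embryonic myosin heavy chain gene. Its counts were 3, 7 and 14 at 0 d, 0, 0 and 0 at 3 d, 3, 0 and 0 at 6 d, with 0, 0 and 2 at 9 d. The 0 d libraries were above all libraries at 3 d and 9 d, and replicate 1 at 0 d was tied with replicate 1 at 6 d. At 3 d the level was at least 2.75-fold lower (adjusted p = 0.0419), and the call was lost in 13 of 16 alternatives (0.00602 to 1). It was lost without any of the 6 libraries compared: 0.0566, 0.150 and 0.520 without replicates 1, 2 and 3 at 0 d, and 0.227, 0.238 and 0.252 without replicates 1, 2 and 3 at 3 d.

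In the RefSeq order of ARS-UCD2.0 the stretch beside circRNA2023 holds further myosin heavy chain genes, MYH13, MYH8, MYH4, MYH1 and MYH2, named after the values were seen. MYH3 mRNA was at 17.6 FPKM at 0 d, then at 5.65, 4.40 and 4.57 on days 3, 6 and 9, called lower on each day (log2 fold changes -1.62, -1.97 and -1.92). MYH8 was at 1.49, 1.34, 2.63 and 1.31 FPKM and was not called. MYH4 was at 0.02 FPKM or less in every library.

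**Figure D4:**
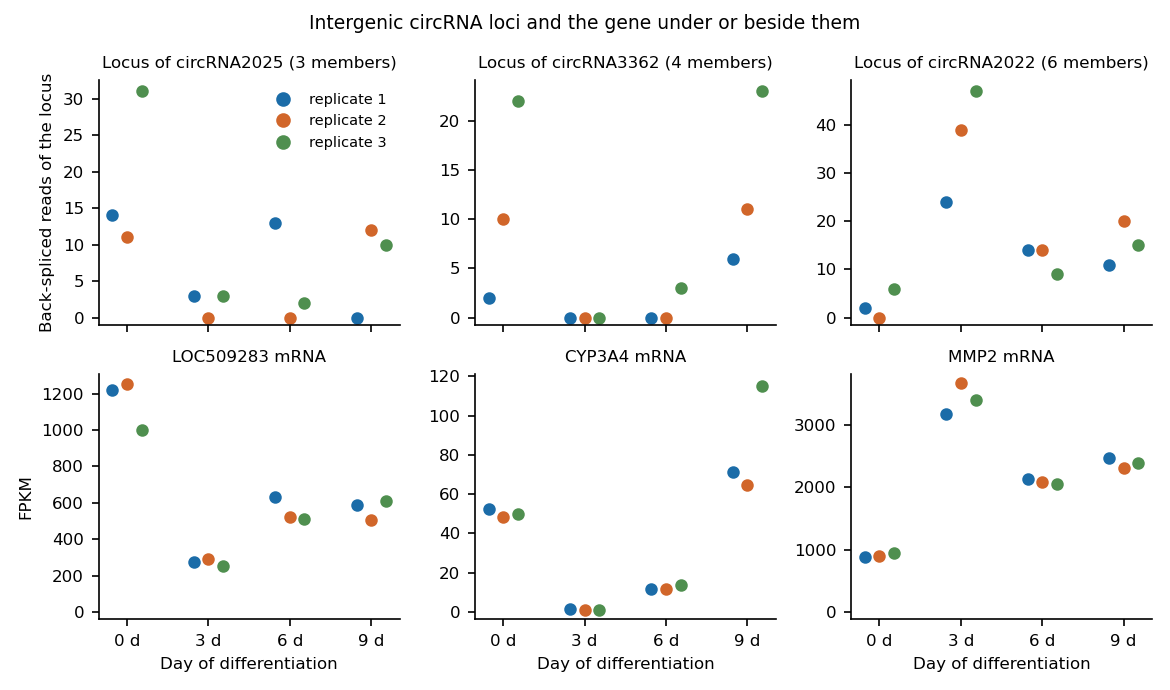
Summed back-spliced reads of 3 loci (top) and FPKM of the gene under or beside them (bottom), in each library by day of differentiation, each point a replicate. At 3 d the loci over LOC509283 and CYP3A4, as day totals, and both mRNAs are at their lowest. The locus beside MMP2 and MMP2 mRNA are at their highest on that day. Single libraries of the LOC509283 locus at 6 d and 9 d, and of the CYP3A4 locus at 6 d, are as low as those at 3 d.

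The remaining lower calls had uneven replicates. circRNA3349, at chr9:87050982-87070791 between the hosts PCMT1 and MTHFD1L, had 0, 7 and 12 reads at 0 d, 0, 0 and 0 at 3 d, 5, 8 and 0 at 6 d, with 0, 0 and 0 at 9 d. Replicate 1 at 0 d was as low as the 3 d libraries. It was at least 2.18-fold lower at 3 d (adjusted p = 0.0450), a call lost in 12 of 16 alternatives (0.0214 to 1), with 0.177 and 0.501 without replicates 2 and 3 at 0 d and 0.239, 0.255 and 0.272 without replicates 1, 2 and 3 at 3 d.

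circRNA2029, at chr21:67783188-67820530 between CDC42BPB and EIF5, was called lower at 9 d. Its counts were 12, 0 and 17 at 0 d, 0, 0 and 14 at 3 d, 0, 8 and 0 at 6 d, with 0, 0 and 0 at 9 d. Replicate 2 at 0 d was as low as the 9 d libraries. It was at least 3.21-fold lower at 9 d (adjusted p = 0.0031, 0.000432 to 1 over 16 alternatives), and 0.0994 without replicate 3 at 0 d.

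circRNA5819 was called higher at 3 d and 9 d. It spans 34486 bp at chrX:45268406-45302891, and its counts were 0, 0 and 0 at 0 d, 21, 21 and 0 at 3 d, 0, 0 and 0 at 6 d, with 0, 18 and 15 at 9 d. At 3 d and at 9 d 1 of the 3 libraries was at 0, as were all libraries at 0 d and 6 d. The level was at least 4.37-fold higher at 3 d (adjusted p = 0.000375, 1.72e-05 to 1 over 16 alternatives) and at least 3.17-fold higher at 9 d (0.00224, 0.00029 to 1). The 9 d call was lost without replicate 2 of that day (0.0550), and both were lost with DESeq2 and with a minimum of 20 counts.

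On chromosome 27, circRNA7974 and circRNA3366 overlap on the minus strand at chr27:6224280-6224443 and chr27:6224288-6224528. circRNA7974 had 0, 0 and 0 reads at 0 d, 0, 0 and 23 at 3 d, 13, 0 and 21 at 6 d, with 20, 23 and 18 at 9 d. All 9 d libraries were above all 0 d libraries, while 3 d and 6 d held libraries at 0. Levels were at least 2.22-fold, 4.29-fold and 6.08-fold higher at 3, 6 and 9 d (adjusted p = 0.00174, 2.63e-05 and 2.11e-06). Over 16 alternatives the adjusted p ran from 0.00023 to 1 at 3 d, from 3.3e-06 to 1 at 6 d and from 2.41e-07 to 1 at 9 d. Without replicate 3 at 3 d no reads were left at 3 d and the adjusted p there was 1.

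circRNA3366 had 0, 29 and 0 reads at 0 d, 0 in all libraries at 3 d and 6 d, and 0, 0 and 24 at 9 d. Its reads came from 2 of the 12 libraries, so replicates 1 and 3 at 0 d were as low as 3 d and 6 d. Against 0 d both days were at least 3.69-fold lower (adjusted p = 0.00161 and 0.0074). Over 16 alternatives the adjusted p ran from 0.000239 to 1 at 3 d and from 0.000948 to 1 at 6 d. Without replicate 2 at 0 d no reads were left at 0 d and both adjusted p were 1. Without replicate 3 at 6 d the 6 d value was 0.0884, and with the replicate number as a block it was 0.150, so the 6 d call was lost in both.

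circRNA7974 was called on all 3 later days, but the chromosome 27 locus as a sum was not called in any comparison: its log2 fold changes were 0.01, -0.05 and 0.72 (adjusted p = 1, 1 and 0.576). The other 16 members of the locus had 19, 14 and 16 reads at 0 d, 28, 26 and 18 at 3 d, 21, 5 and 13 at 6 d, with 23, 38 and 9 at 9 d. Their 0 d and 9 d values overlapped. circRNA7974 and circRNA3366 together had 0, 29 and 0 reads at 0 d and 20, 23 and 42 at 9 d, which overlap as well.

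**Figure D5:**
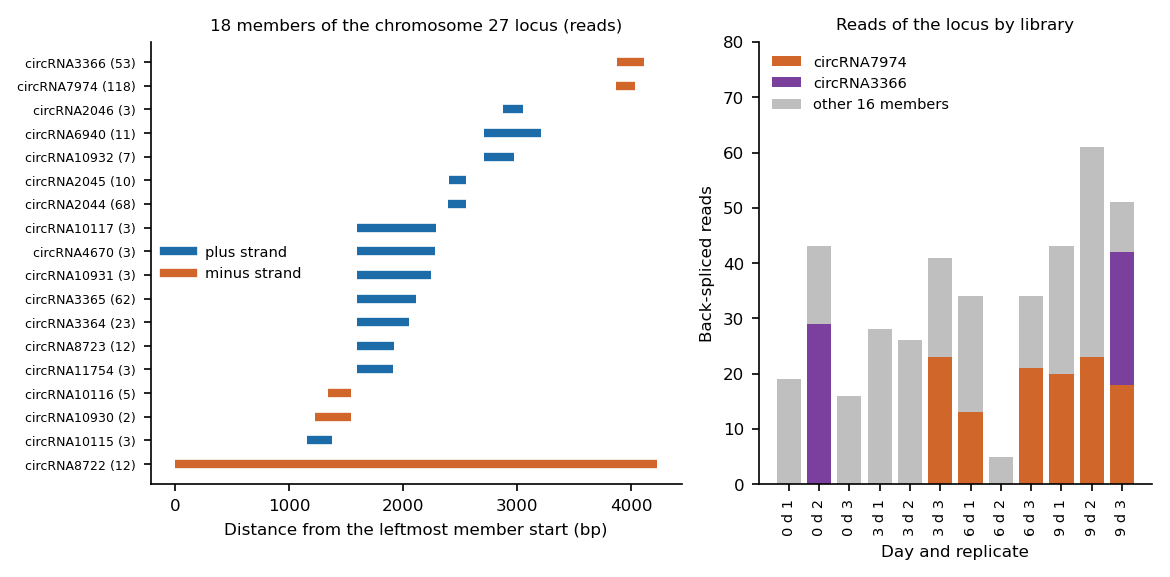
Left, the 18 members of the chromosome 27 locus drawn to scale by distance from the leftmost start (bp), coloured by strand, with their reads over 12 libraries. Right, reads of the locus in each library, split into circRNA7974, circRNA3366 and the other 16 members; circRNA3366 appears in replicate 2 at 0 d and replicate 3 at 9 d.

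Among the 20 most read members, 15 were called in no comparison. The second most read, circRNA2007 at chr10:26636179-26646231, had 4, 7 and 0 reads at 0 d, 16, 0 and 22 at 3 d, 10, 14 and 25 at 6 d, with 4, 6 and 11 at 9 d. All 6 d libraries were above all 0 d libraries, and 3 d and 9 d overlapped 0 d. At 6 d its log2 fold change was 2.26 (SE 0.73, adjusted p = 0.266). circRNA1998, at chr6:5946282-5976039 between PDE5A and MYOZ2, had 14, 8 and 6 reads at 0 d, 16, 15 and 18 at 3 d, 0, 0 and 10 at 6 d, with 9, 9 and 0 at 9 d. In raw counts all 3 d libraries were above all 0 d libraries, but not after scaling for library size, and the log2 fold change was 0.60 (SE 0.70, adjusted p = 0.815).

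On the mitochondrial genome, 8 of the 9 members form a locus of 2334 bp with 300 reads. Its counts were 15, 0 and 19 at 0 d, 31, 24 and 36 at 3 d, 32, 8 and 34 at 6 d, with 31, 43 and 27 at 9 d. All 3 d and 9 d libraries were above all 0 d libraries, and 6 d overlapped 0 d. The log2 fold change at 9 d was 1.38 (SE 0.56, adjusted p = 0.567). The members spanned 141 to 266 bp, and circRNA1984 at chrMT:6675-6890 held 98 of the reads.

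Other loci lay beside or over genes picked after the values were seen. A locus of 3 members on chromosome 2 lies 1134 bp from the circRNAs of COL5A2 and 17912 bp from those of COL3A1, fibrillar collagen genes with no RefSeq gene between them. Its 61 reads overlapped between days. Over MEG8, a maternally expressed noncoding RNA gene, 4 members had 12, 24, 13 and 27 reads on days 0, 3, 6 and 9, and the 19 gene-assigned circles there had 5, 14, 10 and 20. circRNA5807, over CRISPLD2, had 13 reads, all at 3 d, the day on which CRISPLD2 mRNA stood at 621 ± 24.0 FPKM against 78.9 ± 3.21 at 0 d (log2 fold change 2.97, adjusted p = 3.26e-10). CRISPLD2 mRNA was also called higher at 6 d (250 ± 19.5 FPKM, log2 fold change 1.66, adjusted p = 6.44e-08), when circRNA5807 was listed at 0. circRNA5807 itself was not called.

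Of the members in the study's network, circRNA2018 had the most reads. At chr16:12470914-12478370 it had 5, 0 and 0 reads at 0 d, 8, 19 and 12 at 3 d, 6, 4 and 4 at 6 d, with 4, 0 and 4 at 9 d. All 3 d libraries were above every other library, while 6 d and 9 d overlapped 0 d. The log2 fold change at 3 d was 2.67 (SE 0.93, adjusted p = 0.323), not called. Without replicate 1 at 0 d it was called (adjusted p = 0.0089, the lowest of its alternatives, the highest being 1). The study itself reported all RNAs of its network as differentially expressed. It also measured circRNA2018 by qRT-PCR and stated that the trends of the RNAs measured closely matched its sequencing. The network chose its members on these samples, so their direction in the sequencing counts is not independent evidence.

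The third network member, circRNA2041 at chr25:36612674-36734518, had 2, 2 and 5 reads at 0 d and none in any later library. Each later day was at least 1.02-fold lower (adjusted p = 0.586, 0.644 and 0.569) and was not called. It overlaps circRNA3362 in the CYP3A4 locus, so the counts of the pair share their place.

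Of the 5 partner miRNAs, 2 were called on every day. bta-miR-486 was at a normalised value of 15587 ± 5274 at 0 d and 5584 ± 357, 3034 ± 1825 and 2489 ± 370 on days 3, 6 and 9 (SD, n = 3), with log2 fold changes of -1.38, -2.20 and -2.50 (edgeR adjusted p = 0.0191, 0.000451 and 0.000132). bta-miR-10172-3p_R-1 was at 132 ± 95.3, 497 ± 43.6, 339 ± 80.1 and 386 ± 25.3, with log2 fold changes of 2.05, 1.56 and 1.72 (adjusted p = 0.00262, 0.00894 and 0.00341). Among all 1180 miRNAs tested 6.02%, 11.4% and 19.4% were called at 3, 6 and 9 d. bta-miR-330, bta-miR-433 and bta-miR-7857-5p had absolute log2 fold changes under 1 on all days and were not called. At 9 d their log2 fold changes were 0.62, -0.57 and -0.76 (edgeR adjusted p = 0.0164, 0.0317 and 0.00572), under the fold threshold. At 6 d the edgeR adjusted p was also under 0.05 for bta-miR-330 (0.0484) and bta-miR-7857-5p (0.0474). bta-miR-486 was lower on the day on which circRNA2024, tied to it, was lower, and bta-miR-10172-3p_R-1 was higher while circRNA2041 was listed at 0.

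The mRNAs that the network ties to these members were FOXO1, a transcription factor gene of insulin signalling, SESN3, a stress-response gene, and PELI2, a ubiquitin ligase gene. FOXO1 was at 5.26 ± 0.16 FPKM at 0 d and 17.4 ± 0.38, 5.57 ± 0.15 and 3.50 ± 0.20 on days 3, 6 and 9, and was called higher at 3 d (log2 fold change 1.71, adjusted p = 1.24e-08). SESN3 was at 51.6, 368, 43.9 and 64.2 FPKM and was called higher at 3 d (2.83, adjusted p = 4.43e-10). PELI2 was under 0.5 FPKM in every library and was called lower on each day (-1.49, -1.06 and -1.29), calls that a pseudocount of 1 FPKM removed. Rescaling the libraries also removed the 6 d call. Binding between these RNAs was not measured.

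The genes known to make or remove circRNAs were mostly level. Of 32 listed genes 29 were in the mRNA table and 26 passed the filter. At 3 d 3 of the 26 were called lower and none higher, beside 23.3% of all mRNAs called. Among them were QKI, a splicing factor that brings circle ends together, and ADARB1, an RNA-editing enzyme. QKI was at 347, 338 and 290 FPKM at 0 d, against 59.3, 81.9 and 144 at 3 d, without overlap (log2 fold change -1.87, adjusted p = 0.00688). ADARB1 was at 53.8 ± 16.8 FPKM at 0 d and 15.5 ± 8.53 at 3 d (-1.86, adjusted p = 0.00353). At 6 d and 9 d limma called 0 genes of the list, beside 11.4% and 10.9% of all mRNAs. An unadjusted p under 0.05 was found for 10 and 16 of the 26, and for 6644 and 6979 of all 15402 mRNAs. The median log2 fold change of the list was 0.07, -0.10 and -0.27, beside -0.06, -0.15 and -0.19 over all mRNAs. No other tool was run on FPKM. MBNL2 was the most abundant gene of the list, and RBM20, ESRP1 and NOVA2 were under 1 FPKM throughout. Whether these genes bear on the members was not tested.

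Markers of cell types were read from the mRNA table beside these changes. In bulk samples fewer cells of a type and less RNA per cell cannot be told apart. The summed FPKM of 8 preadipocyte and stroma genes was 13464 to 14293 at 0 d and 44279 to 46335, 34983 to 36534 and 48872 to 49964 on days 3, 6 and 9. DCN was the most abundant and made up most of the sum. The genes of this list did not move together: of 7 tested, the genes called higher numbered 4, 3 and 2 on days 3, 6 and 9, and those called lower 3, 2 and 1. COL1A1 and PDGFRB were among those lower at 3 d (log2 fold changes -1.68 and -1.38). DLK1 and CD34 were under 1 FPKM throughout. The sum of 9 adipocyte genes in the table was 165 to 169, 1045 to 1101, 481 to 533 and 358 to 398, with PLIN2 the most abundant and CEBPA and CIDEC under 1 FPKM. At 3 d 6 of the 9 were called higher and LEP lower, and at 6 d and 9 d 6 were called higher, beside 23.3%, 11.4% and 10.9% of all mRNAs called in either direction on these days. Several of these calls were unstable. A pseudocount of 1 FPKM removed those of ADIPOQ on all 3 days, of CIDEC at 6 d and 9 d and of CD34, and a pseudocount of 0.01 that of LEP at 6 d. ADIPOQ at 6 d (adjusted p = 0.0258) was also lost without replicates 1, 2 or 3 at 0 d (0.0710, 0.0577 and 0.0567), without replicate 1 at 6 d (0.0605) and in a fit of the 6 libraries compared (0.0564). At 9 d (0.0196) it was lost without replicate 1 at 0 d (0.0565) and without replicates 1 or 2 at 9 d (0.0684 and 0.0706).

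The sum of 7 skeletal muscle genes was 824 to 938 at 0 d and 269 to 297, 378 to 421 and 292 to 326 on days 3, 6 and 9, with DES the most abundant, and 6, 5 and 6 of the 7 were called lower, where the shares of all mRNAs called were those given above. Without replicate 3 at 6 d, MYF5 was called lower on that day too (adjusted p = 0.00663). Their part in the lower counts of circRNA2023 and the other members lower at 3 d was not tested. The sum of 5 blood and immune genes was 1.03 to 1.34 FPKM at 3 d, above all other libraries (0.34 to 0.75), with PTPRC and HBB at 0. CSF1R was the most abundant and was called higher at 3 d (log2 fold change 1.23, adjusted p = 0.00127), a call lost with a pseudocount of 1 FPKM and without replicate 3 at 0 d, where the log2 fold change fell just under 1. Of 4 endothelial genes VWF alone exceeded 1 FPKM, and their sum was 1.58 to 2.64. PPARG, PLIN1 and PAX7 were not found by name in the table.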

How the data were processed

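Values came from the deposited tables. The authors called circRNAs with CIRCExplorer2 and CIRI and deposited back-spliced read counts per junction and library, beside SRPBM signal, which equals the count times 1 factor per library. They also deposited FPKM per gene for mRNAs, and for miRNAs expected counts (raw) and a normalised signal. Coordinates follow ARS-UCD1.2 per the study's methods, while the deposited processing notes name mm8. The sample labels describe poly(A) selection and the paper rRNA depletion, a difference left unresolved. The lncRNA table was not used, since it holds no positions.

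Counts of all circRNAs with at least 5 reads were fitted with edgeR 4.0.16 (TMM, estimateDisp, glmQLFit, glmQLFTest; R 4.3.3), miRNAs rounded with at least 10 counts likewise, and mRNAs with limma 3.58.1 (trend) on log2(FPKM + 0.1) for genes with a mean of at least 0.1 FPKM. Every later day was contrasted with 0 d, with a call where p, adjusted by Benjamini-Hochberg over all features, was under 0.05 and the log2 fold change above 1 in size. The common biological coefficient of variation of the circRNAs was 0.967. Alternatives were DESeq2 1.42.0, other filters, library sizes from SRPBM, a replicate block and leaving out each library. Folds against days at 3 or fewer reads per library are lower bounds against a floor of 3.

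Members named were those called, the 20 most read, those in the study's network or primers, and the shortest and longest with at least 10 reads. Members and lists were chosen with earlier results of these data known. Gene order came from RefSeq (ARS-UCD2.0), by name only. Shares and figures used Python 3.11.15, pandas 2.3.3, SciPy 1.17.1 and Matplotlib 3.10.9.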

Additional observations from a re-analysis of the deposited data

How the results depend on the processing

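No called member reversed direction under the alternatives run. Signs did change among values that were not called. At 6 d the chromosome 27 sum went from a log2 fold change of -0.05 to 0.67 without replicate 2 at 0 d. The 6 d median over the genes that make or remove circRNAs went from -0.10 to 0.06 with FPKM rescaled by median ratios. The same rescaling moved the median over all mRNAs from -0.15 to 0.004, so this change of sign is not particular to the list. The number of called members was the result most often changed. With DESeq2 it was 0 at 3, 6 and 9 d, with an unadjusted p under 0.05 for 5, 2 and 1 members, and no circRNA of the table was called by that tool. With a minimum of 20 counts, which leaves 42 members, it was 1, 0 and 0, the edgeR count at an unadjusted p under 0.05 being 10, 4 and 9. Without a count filter it was 4 at 3 d. With the replicate number as a block it was 4 at 3 d and 1 at 6 d. Among alternatives chosen after seeing the data, setting every value of 1 to 0 gave 4 at 3 d, and summing the members of a locus gave 0 at 6 d, with 14 loci at an unadjusted p under 0.05. Leaving out each library gave 2 to 7, 1 to 2 and 2 to 4 members on days 3, 6 and 9. The causes were not tested.

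Of the genes that make or remove circRNAs, 1 was called at 6 d after FPKM were rescaled by median ratios, and leaving out each library gave 2 to 3, 0 to 0 and 0 to 1 on days 3, 6 and 9; with all libraries limma gave an unadjusted p under 0.05 for 10 genes at 6 d.

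The share of back-spliced reads at 0 d moved to 3.80% with chromosome 23 left out of the total and to 2.77% without members over 100 kb. At 9 d it moved to 3.89% with the former and to 3.05% without the mitochondrial members, an alternative chosen after seeing the data. Leaving out each library gave 3.28% to 3.44%, 4.12% to 4.50%, 3.02% to 3.69% and 3.20% to 3.50% on the 4 days in turn. The share of members with over 50% of their reads in 1 library was 33.6% at a minimum of 5 counts and 2.38% at 20, and 15.5% to 19.2% over left-out libraries. The median span was 8690 to 10336 bp over left-out libraries.

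Whether replicate numbers pair libraries across days was not settled. Deviations from the day mean correlated at -0.03 to 0.05 for circRNAs of like-numbered libraries (18 pairs, median 0.02). For unlike numbers they correlated at -0.08 to 0.05 (36 pairs, median -0.01). Of 12 libraries, 7 correlated best with one of their own number, a hint at most. For mRNAs 6 of 12 did. There 2 of 18 like-numbered pairs correlated above 0.1, while unlike-numbered pairs reached 0.18. With circRNA counts this sparse, such correlations cannot exclude a pairing. With 3 libraries a day and a median of 4 reads per member, small differences in single members may have gone undetected. The size of difference that could be detected was not tested.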
